A study of Mus musculus with 36 samples.

Results

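In mice with B16-F10 melanoma, tumour-associated macrophages (TAM) were compared after OMV-SIRP-G and after phosphate-buffered saline (PBS), across all genes. The comparison took the 6 libraries labelled with these treatments and this tumour, 3 for each treatment, of 36 libraries in 12 groups in the series. The mice were wild type per the labels. OMV stands for outer membrane vesicle in the series title, a particle shed by bacteria. The labels do not spell out the SIRP and G parts of the names. Another B16 group, 3 libraries after OMV-SIRP, is set beside them, and TAM libraries from mice with MC38 colon carcinoma after the same treatments are used in the last comparison. The design text says that TAM from 3 samples of each group were pooled, and neither the age of the mice nor how the cells were gated is given in the sources used here. Whether the 3 libraries of each treatment came from different animals is not stated. The p-values therefore describe only how far these libraries vary among themselves, and that variation may be technical.

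Macrophages engulf particles and dying cells, display their fragments and secrete chemokines that draw in other leukocytes. Many of them carry SIRPα, the product of Sirpa, an inhibitory receptor whose ligand CD47 on a neighbouring cell restrains engulfment. In tumours, macrophages often express the arginase Arg1 and the mannose receptor Mrc1, genes associated with tissue repair and with interleukin 4. Bacterial products such as lipopolysaccharide act through Toll-like receptors and NF-κB and induce Nos2, the inducible nitric oxide synthase, together with interferon-stimulated genes. B16-F10 is a pigmented mouse melanoma line that expresses the genes of melanin synthesis.

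Levels are FPKM, fragments per kilobase of gene length scaled for sequencing depth. A gene is said to have risen or fallen in OMV-SIRP-G libraries relative to PBS libraries where limma gave a Benjamini-Hochberg adjusted p under 0.05 on log2(FPKM + 1). Log2 changes are OMV-SIRP-G minus PBS with their standard error unless OMV-SIRP is named, and they understate the change of genes with low FPKM. Of 12542 genes tested, 1895 passed, which is 15.1% of them. Of these, 982 (7.83% of all tested) rose and 913 (7.28%) fell, and the median change of all tested genes was -0.03. At least a 2-fold change was met by 309 of the rises and 574 of the falls. The B16 libraries held 13036567 to 15563452 reads assigned to genes. Across genes, log2(FPKM + 1) correlated at 0.933 to 0.95 among OMV-SIRP-G libraries, 0.947 to 0.976 among PBS libraries and 0.885 to 0.911 between them. Leaving out PBS library 2 gave 1192 genes past the threshold and leaving out PBS library 3 gave 1177, so the number of calls rests in part on these libraries.

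**Figure D1:**
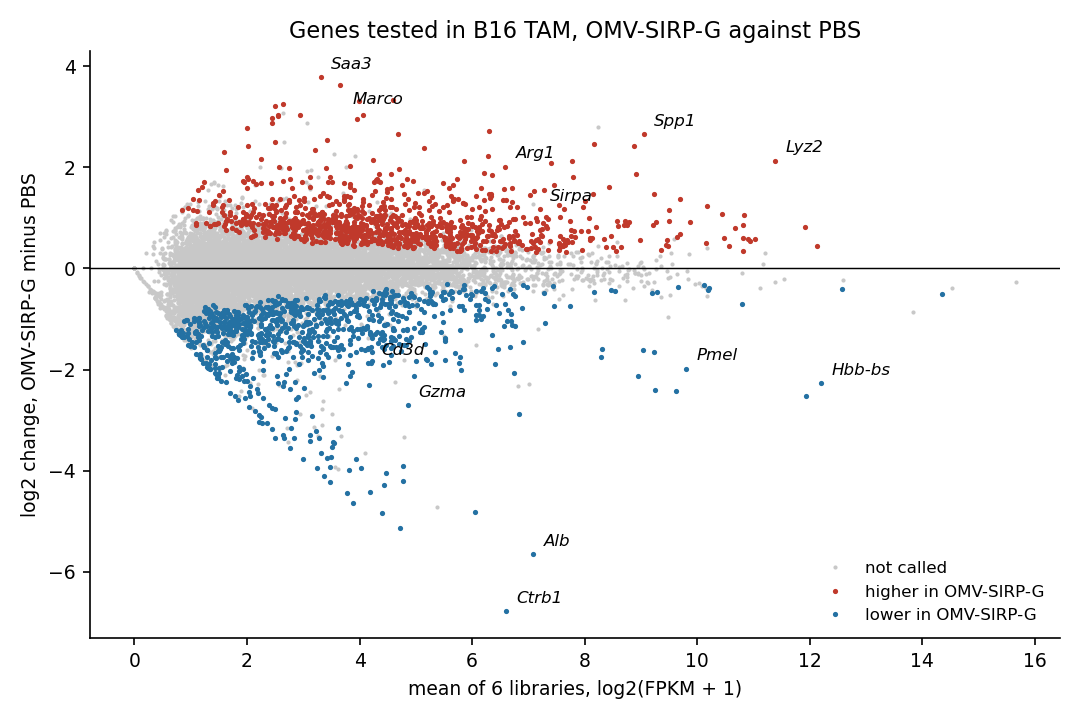
Log2 change (OMV-SIRP-G minus PBS, vertical) of the 12542 genes tested in B16 TAM against their mean log2(FPKM + 1) over 6 libraries (horizontal). Red points are the 982 genes that rose, blue points the 913 that fell and grey points the rest; the largest rise is Saa3 at 3.78, the largest fall is Ctrb1 at -6.78, and Lyz2, Pmel and Hbb-bs are the labelled genes with the highest levels.

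All listed macrophage markers rose. The list of macrophage identity genes had 16 members, all tested, and 16 rose and 0 fell, with a median log2 change of 1.25 and a range of 0.68 to 2.15, where 7.83% of all tested genes rose. Lyz2, which encodes the lysozyme of macrophages, was at 4267, 4461 and 4360.3 FPKM in OMV-SIRP-G libraries, 1741, 1781 and 2422 FPKM in OMV-SIRP libraries and 981, 1029 and 973 FPKM in PBS libraries, a change of 2.13 ± 0.12 (adjusted p = 5.39e-06). The highest PBS value lay well below the lowest OMV-SIRP-G value, with OMV-SIRP in between. Itgam, which encodes the integrin CD11b, was at 30.5, 29.9 and 28.7 FPKM in OMV-SIRP-G libraries against 6.1, 5.66 and 6.05 FPKM in PBS libraries (2.15 ± 0.12, adjusted p = 5.39e-06). The receptor for macrophage colony-stimulating factor, Csf1r, averaged 155 ± 2.03 FPKM in OMV-SIRP-G and 66.5 ± 3.13 FPKM in PBS libraries (SD, n = 3 each), and the high-affinity Fc receptor Fcgr1 averaged 127 ± 6.75 FPKM in OMV-SIRP-G and 34.6 ± 3.55 FPKM in PBS libraries. The summed level of the list was 13882 to 14613 FPKM in OMV-SIRP-G libraries, 6199 to 8550.0 in OMV-SIRP libraries and 5744 to 6139.8 in PBS libraries. Macrophage transcripts were thus abundant in every library, as the label has it. In RNA from many cells, fewer cells of a type and less RNA per cell cannot be told apart, and this holds for each list below.

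Melanoma transcripts were measured in the same libraries and moved the other way. All 15 pigment cell genes listed fell, with a median log2 change of -1.62, where 7.28% of all tested genes fell. Their summed level was 894 to 1005 FPKM in OMV-SIRP-G libraries, 2623 to 2912 in OMV-SIRP libraries and 3236 to 3516 in PBS libraries. Genes of red cells, T cells and cytotoxic cells were also lower after OMV-SIRP-G than after PBS, with values given further on. Every rise of a macrophage gene below therefore stands beside a fall of transcripts of other cells in the same 6 libraries, and the part of that shift in each result was not tested. Of the genes that met every criterion for naming, 15 rose by more than the largest change among the macrophage identity genes, which was that of Itgam at 2.15.

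**Figure D2:**
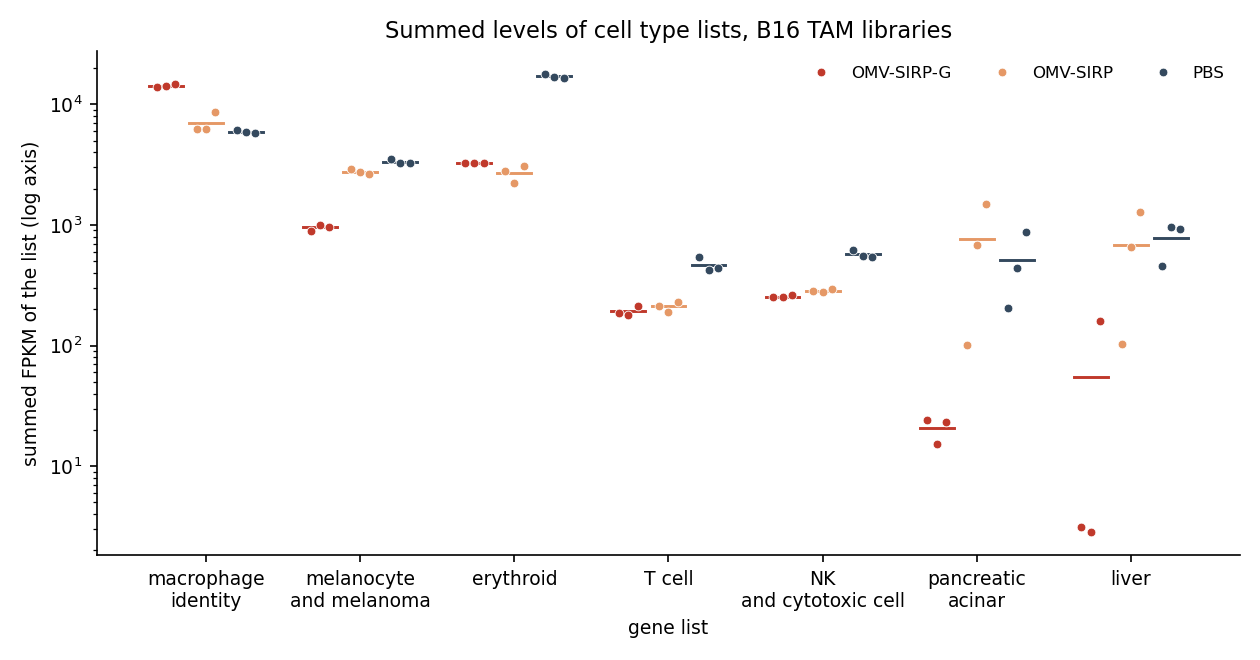
Summed FPKM of the members of 7 gene lists (log axis) in the 9 B16 TAM libraries; each point is 1 library, bars are group means, and the pancreatic acinar and liver lists were put together after the values were seen. OMV-SIRP-G libraries are highest for macrophage identity, lowest for the pigment cell list, and close to the OMV-SIRP libraries for the red cell and lymphocyte lists, where PBS libraries are highest.

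Among the largest rises were secreted and surface proteins of macrophages and monocytes and the itaconate enzyme Acod1. The 12 largest rises among protein-coding genes with a mean of at least 5 FPKM and groups that did not overlap were, in order, Saa3, Marco, Ppbp, Acod1, Slfn4, Chil3, Ms4a4a, Spp1, F13a1, Lyz1, Ccl7 and Pf4. Groups that did not overlap with OMV-SIRP-G higher were seen for 17.4% of all genes tested. The smallest of these rises was Pf4 at 2.42, and the first gene outside the 12 was Fn1, which encodes fibronectin, at 2.39.

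Saa3 encodes an acute-phase serum amyloid A protein that macrophages make in response to bacterial products. It lies at chr7:46711998-46715700 (GRCm38, as deposited). It was at 17.1, 18.1 and 17.3 FPKM in OMV-SIRP-G libraries, 3.83, 3.98 and 8.25 FPKM in OMV-SIRP libraries and 0, 0.41 and 0.74 FPKM in PBS libraries. The PBS libraries were at or near 0 and no groups overlapped, with a change of 3.78 ± 0.28 against PBS (adjusted p = 3.24e-05) and of 1.61 ± 0.28 against OMV-SIRP (adjusted p = 0.00505). Marco (chr1:120474538-120505024) encodes a scavenger receptor that binds bacteria. Its level was 19.3, 21.1 and 26 FPKM in OMV-SIRP-G libraries, 7.53, 14.2 and 17.3 FPKM in OMV-SIRP libraries and 1.53, 0.832 and 0.367 FPKM in PBS libraries. It rose by 3.63 ± 0.30 against PBS (adjusted p = 5.45e-05), whereas against OMV-SIRP the difference of 0.79 ± 0.30 did not pass (adjusted p = 0.133), although the groups did not overlap. Acod1 (chr14:103046977-103056573) encodes the enzyme that makes itaconate, a metabolite of activated macrophages. It was at 13.7, 10.3 and 13.7 FPKM in OMV-SIRP-G libraries against 0.169, 0.534 and 1.45 FPKM in PBS libraries (3.04 ± 0.26, adjusted p = 6.23e-05), and OMV-SIRP libraries lay between them at 5.66, 6.22 and 5.15 FPKM.

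Spp1 had the highest level of the 12. It encodes osteopontin, a secreted adhesion protein common in tumour macrophages, and lies at chr5:104435118-104441050. Spp1 was at 887, 975 and 887 FPKM in OMV-SIRP-G libraries, 258, 270.5 and 332 FPKM in OMV-SIRP libraries and 140.2, 143 and 149 FPKM in PBS libraries. The 3 groups were apart, in that order, and the change against PBS was 2.66 ± 0.11 (adjusted p = 1.69e-06). Ms4a4a, a membrane protein of the MS4A family, was at 129.5, 146 and 131 FPKM in OMV-SIRP-G libraries against 15.6, 18 and 26.8 FPKM in PBS libraries (2.72 ± 0.18, adjusted p = 1.55e-05). F13a1, the A chain of coagulation factor XIII, was at 41.9, 45.6 and 42.1 FPKM in OMV-SIRP-G libraries against 4.75, 6.47 and 7.06 FPKM in PBS libraries (2.65 ± 0.15, adjusted p = 5.37e-06). Both genes were lower in every OMV-SIRP library than in any OMV-SIRP-G library, at 29.3, 37.3 and 33.8 FPKM for Ms4a4a and 12.4, 11.6 and 11.9 FPKM for F13a1.

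Chil3, Slfn4 and Lyz1 are genes of monocytes and macrophages. Chil3, the chitinase-like protein Ym1, was at 21.5, 29.3 and 28.2 FPKM in OMV-SIRP-G libraries, 3.6, 3.18 and 3.44 FPKM in OMV-SIRP libraries and 4.43, 1.84 and 1.81 FPKM in PBS libraries. It rose by 2.95 ± 0.25 against PBS (adjusted p = 6.23e-05) and by 2.62 ± 0.25 against OMV-SIRP (adjusted p = 0.000237), and the OMV-SIRP libraries lay within the range of the PBS libraries. Slfn4, an interferon-inducible Schlafen gene, was at 31.4, 23.8 and 30.7 FPKM in OMV-SIRP-G libraries, 4.33, 7.04 and 3.33 FPKM in OMV-SIRP libraries and 2.11, 3.43 and 2.35 FPKM in PBS libraries (3.04 ± 0.24 against PBS, adjusted p = 4.32e-05). Lyz1 encodes a lysozyme nearly identical to that of Lyz2, so reads could be split between the pair and its value is uncertain; it averaged 17.1 ± 0.884 FPKM in OMV-SIRP-G and 2.21 ± 1.09 FPKM in PBS libraries (SD, n = 3 each; 2.55 ± 0.30, adjusted p = 0.000384).

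Ppbp and Pf4 encode CXC chemokines stored in platelets and also made by macrophages. Pf4 was at 721, 829 and 815 FPKM in OMV-SIRP-G libraries, 265, 247 and 438 FPKM in OMV-SIRP libraries and 127, 156 and 157 FPKM in PBS libraries (2.42 ± 0.20 against PBS, adjusted p = 4.57e-05). Ppbp was at 39.2, 53.9 and 34.9 FPKM in OMV-SIRP-G libraries, 10.4, 9.03 and 10.1 FPKM in OMV-SIRP libraries and 3.27, 2.03 and 4.86 FPKM in PBS libraries (3.34 ± 0.24 against PBS, adjusted p = 2.73e-05). The groups were apart for both genes. Of 12 platelet and megakaryocyte genes listed, 4 passed the filter on low values. The platelet receptor genes Gp1ba, Gp1bb, Gp6 and Gp9 were at 0 in every OMV-SIRP-G library and at or near 0 in PBS libraries too, where Gp1bb was at 0 in all 3 and the highest values were 0.147 FPKM for Gp1ba, 0.0436 FPKM for Gp6 and 0.454 FPKM for Gp9. The platelet integrin Itgb3 fell, at 2.62, 0.624 and 0.799 FPKM in OMV-SIRP-G libraries against 7.57, 4.98 and 5.17 FPKM in PBS libraries (-1.63 ± 0.30, adjusted p = 0.00499).

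**Figure D3:**
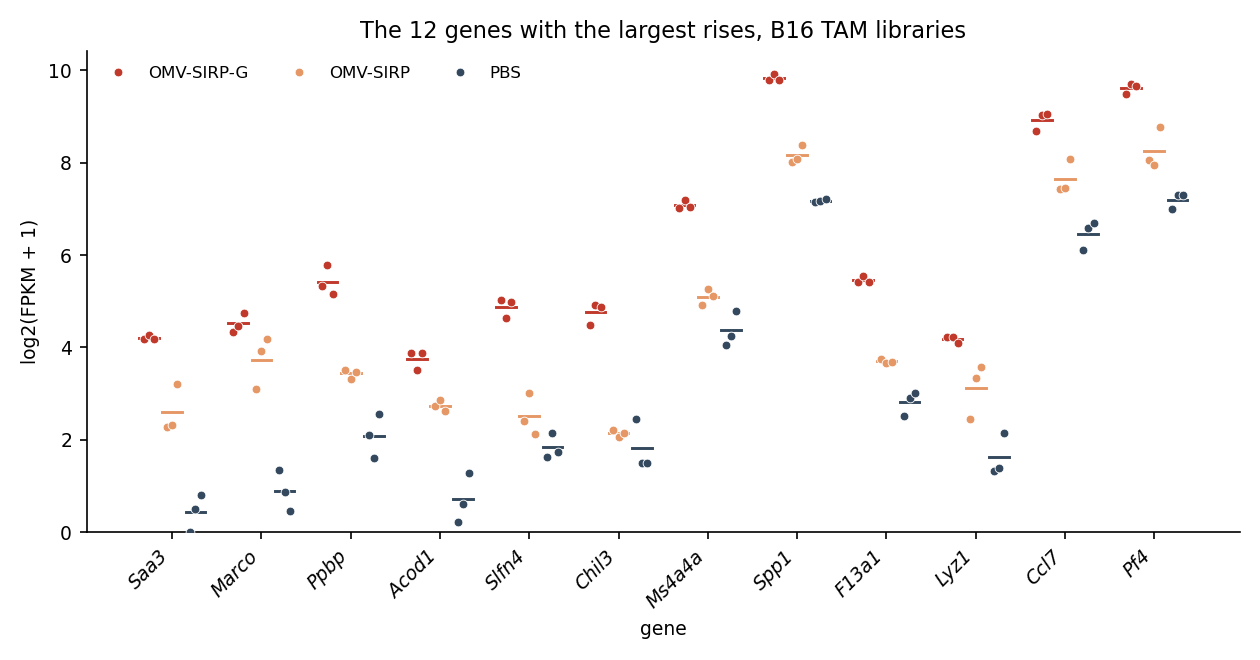
Level, as log2(FPKM + 1), of the 12 genes with the largest rises in the 9 B16 TAM libraries; each point is 1 library and bars are the means of the log2 values. For each gene the OMV-SIRP-G points lie above the PBS points, and for Marco and Lyz1 the OMV-SIRP points come nearer to them than for Spp1 or F13a1.

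Chemokines that attract monocytes were among the rises. Of 19 chemokine genes tested, 10 rose and 2 fell (median 0.78), where 7.83% of all tested genes rose and 7.28% fell. Ccl7 was at 411, 520.2 and 528 FPKM in OMV-SIRP-G libraries, 172, 174 and 270.1 FPKM in OMV-SIRP libraries and 68, 95.4 and 102 FPKM in PBS libraries (2.46 ± 0.21, adjusted p = 6.01e-05). Ccl2, the principal ligand of the monocyte receptor Ccr2, was at 335, 338 and 391 FPKM in OMV-SIRP-G libraries against 72.3, 81.7 and 87 FPKM in PBS libraries (2.13 ± 0.11, adjusted p = 5.29e-06). Ccl6 averaged 755 ± 19.3 FPKM in OMV-SIRP-G and 206 ± 14 FPKM in PBS libraries, and Ccl9 averaged 273 ± 20.9 FPKM in OMV-SIRP-G and 63.7 ± 1.42 FPKM in PBS libraries (SD, n = 3 each). No OMV-SIRP-G library overlapped a PBS library for these 4 genes. The chemokines that fell were Ccl5, a product of T and NK cells as well as macrophages, at 133, 119.5 and 139 FPKM in OMV-SIRP-G libraries against 232, 219 and 206 FPKM in PBS libraries (-0.74 ± 0.10, adjusted p = 0.000683), and Ccl22, a chemokine of mature dendritic cells and of macrophages exposed to interleukin 4.

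Receptors for chemoattractants mostly moved up where they passed. Of 12 receptors for chemokines and chemoattractants tested, 7 rose and 1 fell, where 7.83% of all tested genes rose and 7.28% fell. The complement C5a receptor C5ar1 was at 120.1, 105 and 125 FPKM in OMV-SIRP-G libraries against 36.3, 44.7 and 46.3 FPKM in PBS libraries (1.44 ± 0.12, adjusted p = 6.04e-05). Ccr1 was at 27.3, 34.1 and 27.3 FPKM in OMV-SIRP-G libraries against 10.6, 6.97 and 6.67 FPKM in PBS libraries (1.77 ± 0.19, adjusted p = 0.000189), with OMV-SIRP at 7.19, 9.03 and 7.92 FPKM, near PBS. Ccr2, which marks monocytes newly come from blood, averaged 18.9 ± 2.63 FPKM in OMV-SIRP-G and 6.34 ± 0.866 FPKM in PBS libraries (SD, n = 3 each). The receptor that fell was Ccr7, which guides dendritic cells and T cells to lymph nodes; it was at 40.8, 41.7 and 46.6 FPKM in OMV-SIRP-G libraries, 106, 100.5 and 95.4 FPKM in OMV-SIRP libraries and 89.4, 86.7 and 89.2 FPKM in PBS libraries (-1.02 ± 0.10 against PBS, adjusted p = 0.000103).

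Monocyte genes were among the rises and the falls. Of 14 tested, 6 rose and 3 fell (median 0.36), where 7.83% of all tested genes rose and 7.28% fell. Besides Chil3, F13a1 and Ccr2, Fn1 rose, at 64.5, 57.7 and 53.3 FPKM in OMV-SIRP-G libraries against 8.19, 10.8 and 12.3 FPKM in PBS libraries (2.39 ± 0.19, adjusted p = 3.93e-05). Among the members that fell, Spn and Itgal, named after their values were seen, encode CD43 and an LFA-1 chain that lymphocytes share. Without OMV-SIRP-G library 3 or any 1 PBS library, 1 monocyte gene fell. The call of Spn was lost without any 1 of 5 libraries (adjusted p up to 0.151). Itgal averaged 13.6 ± 2.02 FPKM in OMV-SIRP-G and 22.7 ± 0.731 FPKM in PBS libraries, and Spn averaged 10.1 ± 3.05 FPKM in OMV-SIRP-G and 18.5 ± 3.27 FPKM in PBS libraries (SD, n = 3 each).

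Marker genes of alternative and of classical activation were both among the rises. Of 15 alternative activation genes tested, 7 rose and 1 fell (median 0.81), and of 13 classical activation genes, 3 rose and 0 fell (median 0.58). Among all tested genes, 7.83% rose and 7.28% fell. Whether the alternative and classical lists differ was not tested. Arg1 (chr10:24915221-24927484), the arginase that consumes arginine, was at 145, 139 and 174 FPKM in OMV-SIRP-G libraries, 48.4, 52.5 and 70.1 FPKM in OMV-SIRP libraries and 29.8, 41.2 and 41 FPKM in PBS libraries. It rose by 2.01 ± 0.17 against PBS (adjusted p = 6.23e-05) and by 1.42 ± 0.17 against OMV-SIRP (adjusted p = 0.000732), with all OMV-SIRP-G libraries above all others. Mrc1 (chr2:14229392-14332057), the mannose receptor CD206, was at 131, 131 and 119 FPKM in OMV-SIRP-G libraries, 44, 46.6 and 39.9 FPKM in OMV-SIRP libraries and 21.6, 29.2 and 29 FPKM in PBS libraries (2.23 ± 0.13 against PBS, adjusted p = 7.77e-06). Stab1, a scavenger receptor, averaged 202 ± 9.32 FPKM in OMV-SIRP-G and 69.1 ± 5.72 FPKM in PBS libraries, and Il4ra, the interleukin 4 receptor chain, averaged 70.7 ± 5.38 FPKM in OMV-SIRP-G and 25.5 ± 3.07 FPKM in PBS libraries (SD, n = 3 each). The member that fell was Ccl22.

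Nos2 (chr11:78920787-78960254) was at 4.74, 8.77 and 9.73 FPKM in OMV-SIRP-G libraries, 0.732, 1.35 and 1.72 FPKM in OMV-SIRP libraries and 1.57, 2.98 and 2.36 FPKM in PBS libraries. It rose against PBS (1.38 ± 0.29, adjusted p = 0.0102) and against OMV-SIRP (1.92 ± 0.29, adjusted p = 0.00229), at a level far below that of Arg1 per length of gene. Il1b, the cytokine interleukin 1β, was at 15.8, 24 and 14.8 FPKM in OMV-SIRP-G libraries against 9.49, 7.42 and 7.18 FPKM in PBS libraries (1.07 ± 0.19, adjusted p = 0.00431), and OMV-SIRP libraries, at 16.4, 19 and 19.6 FPKM, overlapped the OMV-SIRP-G libraries. The third member that rose was Acod1. Cd86, a costimulatory ligand often used to mark classical activation, was at 11.9, 10.8 and 9.88 FPKM in OMV-SIRP-G libraries against 8.57, 8.22 and 8.9 FPKM in PBS libraries. The Cd86 groups did not overlap, yet the difference of 0.31 ± 0.14 did not pass (adjusted p = 0.164). The chemokine Cxcl10 likewise did not pass, at 20.6, 25.4 and 22.3 FPKM in OMV-SIRP-G libraries against 15.1, 12.7 and 15 FPKM in PBS libraries (0.64 ± 0.20, adjusted p = 0.0563).

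Sirpa, several other inhibitory receptors of myeloid cells and the phosphatase Ptpn6 rose. Of 16 genes of this list tested, 11 rose and 0 fell, with a median change of 0.86, where 7.83% of all tested genes rose. Sirpa (chr2:129592835-129632228) was at 198, 196 and 213 FPKM in OMV-SIRP-G libraries, 103, 101 and 109 FPKM in OMV-SIRP libraries and 76.6, 92.4 and 99 FPKM in PBS libraries. The OMV-SIRP-G libraries were the highest, with a change of 1.18 ± 0.11 against PBS (adjusted p = 0.000101) and 0.95 ± 0.11 against OMV-SIRP (adjusted p = 0.000564). Cd47 (chr16:49800533-49915010), which encodes the ligand, was at 31.4, 27.5 and 33.3 FPKM in OMV-SIRP-G libraries against 15.4, 22.6 and 20.1 FPKM in PBS libraries (0.65 ± 0.16, adjusted p = 0.0211). The Cd47 call was lost without OMV-SIRP-G library 1 or 3 or PBS library 1 or 3, with an adjusted p of up to 0.0687. Ptpn6, the phosphatase SHP-1 that these receptors recruit, averaged 126 ± 2.89 FPKM in OMV-SIRP-G and 69.6 ± 4.42 FPKM in PBS libraries (SD, n = 3 each). The inhibitory Fc receptor Fcgr2b was at 69.2, 62.2 and 71.3 FPKM in OMV-SIRP-G libraries against 18.9, 20.6 and 21.2 FPKM in PBS libraries (1.69 ± 0.15, adjusted p = 6.23e-05), and Pirb, a receptor for MHC class I whose close relatives could share its reads, was at 40.9, 43.7 and 47.6 FPKM in OMV-SIRP-G libraries against 19.4, 17 and 16.1 FPKM in PBS libraries (1.29 ± 0.12, adjusted p = 0.000101). These calls stand beside a median change of 1.25 for the macrophage identity genes, and whether the lists differ was not tested.

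Receptors for engulfment and the genes of the lysosome rose in most cases. Of 21 phagocytic receptors and opsonins, 13 rose and 1 fell (median 0.83), where 7.83% of all tested genes rose and 7.28% fell. Of 19 lysosomal genes, 16 rose and 0 fell (median 0.65). Msr1, a scavenger receptor for modified lipoproteins and bacteria, was at 35.8, 36.4 and 35.6 FPKM in OMV-SIRP-G libraries, 12.7, 12 and 12.7 FPKM in OMV-SIRP libraries and 8.63, 9.38 and 9.58 FPKM in PBS libraries (1.86 ± 0.11 against PBS, adjusted p = 8.85e-06). The complement receptor C3ar1 was at 67.8, 77.7 and 67.3 FPKM in OMV-SIRP-G libraries against 22.7, 24.4 and 21.4 FPKM in PBS libraries (1.59 ± 0.11, adjusted p = 2.72e-05). Neither gene's groups overlapped. The phagocytic gene that fell, named after its values were seen, was the integrin chain Itgav, at 4.82 ± 0.406 FPKM in OMV-SIRP-G and 8.03 ± 1.58 FPKM in PBS libraries (SD, n = 3 each), a call that leaving out PBS library 1 did not end and leaving out any other library did (adjusted p up to 0.155).

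Cathepsins, the proteases of the lysosome, were among the lysosomal genes that rose. Cathepsin L, Ctsl, was at 132, 139.6 and 153 FPKM in OMV-SIRP-G libraries against 45.2, 48.4 and 46.1 FPKM in PBS libraries (1.58 ± 0.12, adjusted p = 3.93e-05). Cathepsin B, Ctsb, was at 1835, 1905 and 1877 FPKM in OMV-SIRP-G libraries against 803, 960.1 and 914 FPKM in PBS libraries (1.07 ± 0.11, adjusted p = 0.000124), and OMV-SIRP libraries, at 820.5, 836 and 1008 FPKM, were close to PBS. Progranulin, Grn, and prosaposin, Psap, rose by 0.95 ± 0.09 and 0.83 ± 0.09 (adjusted p = 0.00011 and 0.000199). Of 19 genes of lipid-laden macrophages, 16 rose and 0 fell (median 0.87), where 7.83% of all tested genes rose. This list shares Spp1 and cathepsins with those already given. The fatty acid binding protein Fabp5 averaged 349 ± 8.56 FPKM in OMV-SIRP-G and 151 ± 8.79 FPKM in PBS libraries (SD, n = 3 each).

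Proteases of the extracellular matrix rose with few exceptions among those called. Of 14 tested, 8 rose and 1 fell (median 0.95), where 7.83% of all tested genes rose and 7.28% fell. Adam8 was at 259.8, 258 and 267 FPKM in OMV-SIRP-G libraries against 99.3, 112 and 114 FPKM in PBS libraries (1.26 ± 0.09, adjusted p = 3.04e-05). The membrane collagenase Mmp14 averaged 56.5 ± 2.44 FPKM in OMV-SIRP-G and 23 ± 2.64 FPKM in PBS libraries, and the urokinase Plau averaged 96.8 ± 11.9 FPKM in OMV-SIRP-G and 40.8 ± 3.76 FPKM in PBS libraries (SD, n = 3 each). The urokinase receptor Plaur averaged 61.6 ± 5.74 FPKM in OMV-SIRP-G and 26.4 ± 4.83 FPKM in PBS libraries. The member that fell, named after its values were seen, was Adamts1, at 2.26 ± 0.507 FPKM in OMV-SIRP-G and 7.46 ± 0.931 FPKM in PBS libraries.

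Several receptors for myeloid growth factors rose. Of 13 such ligands and receptors tested, 6 rose and 0 fell (median 0.78), where 7.83% of all tested genes rose. The GM-CSF receptor chain Csf2ra was at 115, 97.9 and 129.6 FPKM in OMV-SIRP-G libraries against 38.1, 40.6 and 42.9 FPKM in PBS libraries (1.46 ± 0.13, adjusted p = 8.61e-05), and the G-CSF receptor Csf3r was at 16.6, 17.7 and 20.4 FPKM in OMV-SIRP-G libraries against 5.08, 7.06 and 6.25 FPKM in PBS libraries (1.44 ± 0.16, adjusted p = 0.000276). The ligand genes Csf2 and Il34 were at 0 in all OMV-SIRP-G libraries. Among eicosanoid enzymes, 4 of 12 rose and 2 fell, where 7.83% of all tested genes rose and 7.28% fell. Pla2g7, which degrades platelet-activating factor, was at 42.6, 43.1 and 43.8 FPKM in OMV-SIRP-G libraries against 9.15, 11.5 and 15.8 FPKM in PBS libraries (1.78 ± 0.18, adjusted p = 0.00013). Ptgds, a prostaglandin D2 synthase that melanocytic cells also express, fell, at 58.2, 57.4 and 75 FPKM in OMV-SIRP-G libraries against 205, 161 and 158 FPKM in PBS libraries (-1.45 ± 0.17, adjusted p = 0.000363).

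**Figure D4:**
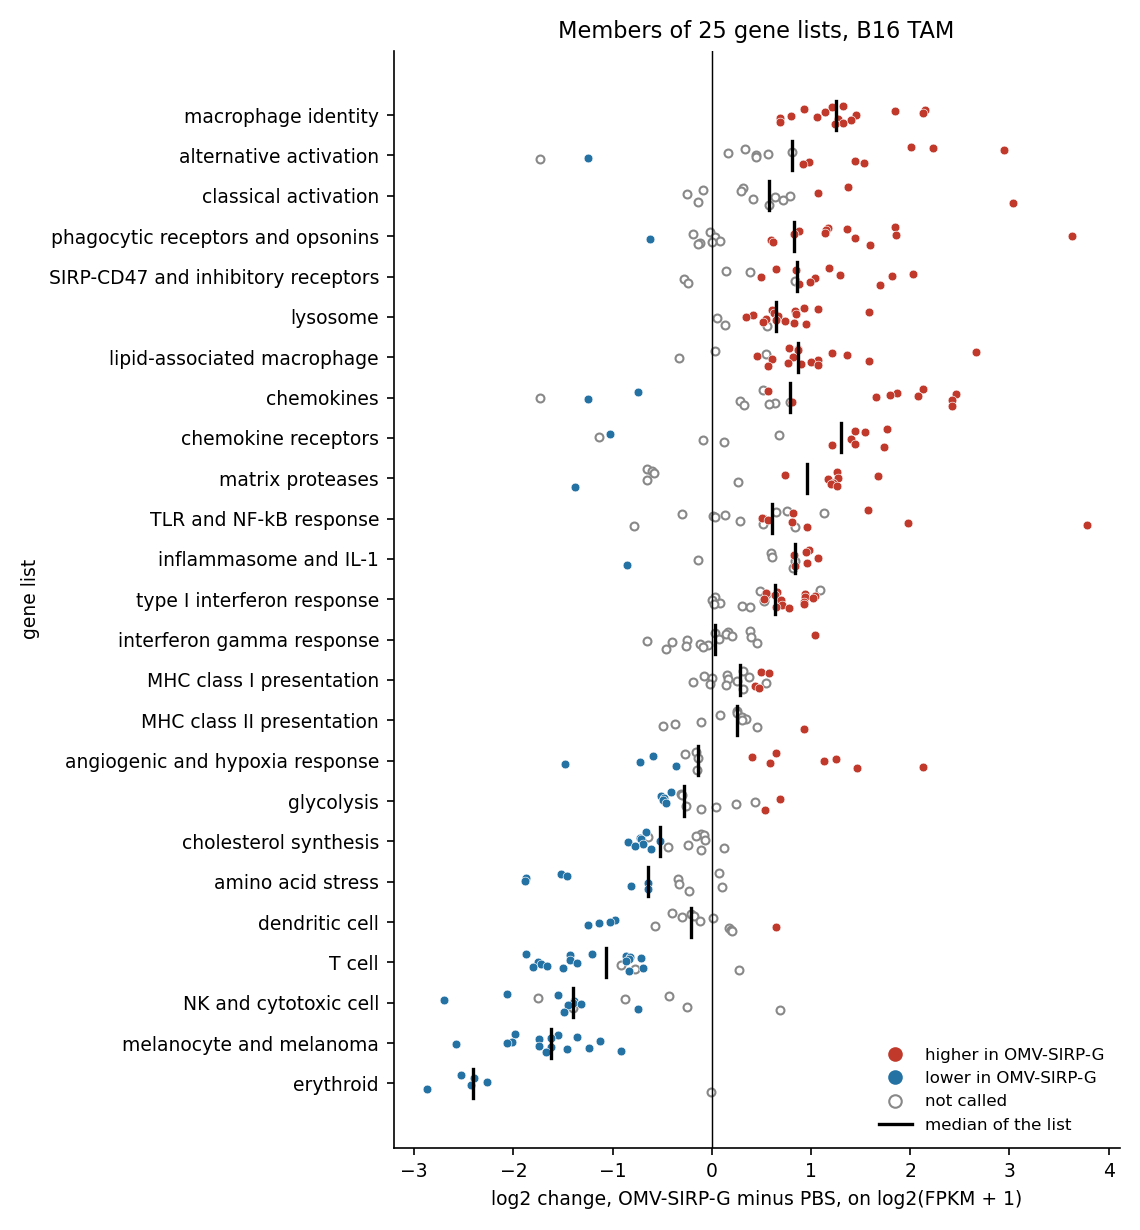
Log2 change (OMV-SIRP-G minus PBS) of each tested member of 25 gene lists in B16 TAM; filled points passed the test, open points did not, and black bars are list medians. The macrophage identity members lie between 0.68 and 2.15, the pigment cell members lie between -2.58 and -0.92, and the interferon gamma list straddles 0 with a median of 0.03.

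Genes of the bacterial response rose in part. Of 20 Toll-like receptor and NF-κB response genes tested, 8 rose and 0 fell (median 0.60), where 7.83% of all tested genes rose. Besides Saa3, the receptor for bacterial lipoproteins Tlr2 was at 38.5, 30.8 and 28.5 FPKM in OMV-SIRP-G libraries, 17.9, 16.5 and 14.9 FPKM in OMV-SIRP libraries and 9.43, 10.5 and 10.6 FPKM in PBS libraries (1.58 ± 0.14 against PBS, adjusted p = 8.77e-05). Cxcl3, a neutrophil chemokine, was at 14.9, 13.7 and 19.2 FPKM in OMV-SIRP-G libraries against 3.17, 3.7 and 2.94 FPKM in PBS libraries (1.98 ± 0.22, adjusted p = 0.000247), and the OMV-SIRP libraries, at 1.46, 2.41 and 3.06 FPKM, overlapped PBS. Il1rn, the interleukin 1 receptor antagonist, was at 37.8, 48.3 and 38.4 FPKM in OMV-SIRP-G libraries against 20.3, 20.6 and 21.3 FPKM in PBS libraries (0.96 ± 0.13, adjusted p = 0.000908). Against OMV-SIRP, 12 of the list's members were higher in OMV-SIRP-G libraries and 0 lower, where 6.35% of all genes were higher in that comparison and 5.62% lower. Without OMV-SIRP-G library 1, PBS library 1 or PBS library 2, 5 of the list's genes rose against PBS.

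The NF-κB core motif, GGG and TTTCC with any 2 bases between, was looked for on both strands in the 250 bases before the RefSeq start of each gene (GRCm38.p6). It was present in 1.41% of 32851 promoters and in 6 of the 15 listed genes that had a promoter sequence, which were Cxcl1, Cxcl2, Cxcl3, Il1rn, Nfkbia and Tnfaip3. Of these, Cxcl2, Cxcl3 and Il1rn rose and the others did not pass, and the Cxcl2 call was lost when any 1 of the 6 libraries was left out (adjusted p up to 0.132). A match describes the letters and shows no binding. For Il1rn the RefSeq start used lies inside the deposited gene model (chr2:24336853-24351494), so its window is within that model. The windows of 2 of the genes that rose are shown because their changes are given above, with the match in capitals, read 5′ to 3′ on the strand of the gene.
Cxcl3, chr5:90786004-90786061, plus strand: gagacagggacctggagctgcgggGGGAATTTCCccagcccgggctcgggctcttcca
Il1rn, chr2:24345296-24345353, plus strand: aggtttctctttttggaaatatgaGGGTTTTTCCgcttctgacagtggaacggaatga

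Inflammasome and interleukin 1 genes included 6 that rose and 1 that fell among 12 tested (median 0.83). The shares over all tested genes were 7.83% for rises and 7.28% for falls. Nlrp3, the sensor of the best known inflammasome, was at 8.61, 5 and 7.73 FPKM in OMV-SIRP-G libraries against 2.88, 3.57 and 2.74 FPKM in PBS libraries (0.98 ± 0.20, adjusted p = 0.00979). Pycard, its adaptor, was at 15.4, 15.9 and 21.6 FPKM in OMV-SIRP-G libraries against 10.6, 8.73 and 9.06 FPKM in PBS libraries (0.83 ± 0.19, adjusted p = 0.0168). Pycard no longer passed when OMV-SIRP-G library 3, PBS library 2 or PBS library 3 was left out (adjusted p up to 0.0638). The gene that fell, named after its values were seen, was the decoy receptor Il1r2, at 9.47 ± 2.19 FPKM in OMV-SIRP-G and 18.4 ± 7.12 FPKM in PBS libraries (SD, n = 3 each), and its call was lost without OMV-SIRP-G library 1 or 2 or PBS library 1 or 2 (adjusted p up to 0.128). Without PBS library 3, 3 of the list's genes rose.

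Type I interferon response genes were among the rises. Of 24 type I interferon response genes tested, 14 rose and 0 fell (median 0.64), and 9 rose when PBS library 3 was left out. Of 17 interferon gamma response genes, 1 rose and 0 fell (median 0.03), a share near the 7.83% of all tested genes that rose. The difference between the lists was not tested. Oasl2, an antiviral protein of the oligoadenylate synthetase family, was at 18.9, 19.5 and 19.1 FPKM in OMV-SIRP-G libraries, 8.9, 11.7 and 8.54 FPKM in OMV-SIRP libraries and 8.89, 9.28 and 8.66 FPKM in PBS libraries (1.02 ± 0.15 against PBS, adjusted p = 0.00116). The OMV-SIRP libraries overlapped PBS here, and the OMV-SIRP-G libraries stood above both. Stat2, which carries the interferon signal to the nucleus, was at 19.2, 18.6 and 18 FPKM in OMV-SIRP-G libraries against 10.5, 8.88 and 8.64 FPKM in PBS libraries (0.93 ± 0.16, adjusted p = 0.0038). Oas2 rose by 1.04 ± 0.17 (adjusted p = 0.00276), and Oas1a, which has close paralogs, rose by 0.63 ± 0.12 (adjusted p = 0.00571). The interferon gamma gene that rose was Gbp7, a guanylate-binding protein, at 3.7, 4.93 and 4.25 FPKM in OMV-SIRP-G libraries against 0.895, 2.03 and 1.93 FPKM in PBS libraries (1.04 ± 0.23, adjusted p = 0.0136), and this call was lost without OMV-SIRP-G library 2 (adjusted p = 0.0523). Ido1 was at 0 in all 6 libraries.

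The interferon-stimulated response element is the DNA motif through which STAT2 and its partners act on target genes. Its core, GAAA repeated after any 2 bases, on either strand, was present in 2.98% of the 32851 promoters and in 8 of the 18 type I interferon genes with a promoter sequence. Of these, Bst2, Ifit3, Isg15, Oas1a, Rsad2 and Stat2 rose, and Ifit1 and Oas3 did not pass. The calls of Bst2, Ifit3 and Rsad2 were each lost without any 1 of several libraries (adjusted p up to 0.125, 0.14 and 0.138). The windows of 4 of the genes that rose show how the motif lies before the start; overlapping matches are joined, and in Stat2 the match is on the opposite strand.
Isg15, chr4:156200851-156200920, minus strand: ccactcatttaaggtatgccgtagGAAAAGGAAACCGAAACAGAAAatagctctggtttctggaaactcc
Oas1a, chr5:120907526-120907569, minus strand: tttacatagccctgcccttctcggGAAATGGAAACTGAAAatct
Bst2, chr8:71537563-71537626, minus strand: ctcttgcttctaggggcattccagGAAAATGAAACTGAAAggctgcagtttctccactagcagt
Stat2, chr10:128270252-128270309, plus strand: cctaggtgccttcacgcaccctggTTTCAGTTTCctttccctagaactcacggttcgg

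Some antigen presentation genes rose. Of 16 MHC class I genes tested, 4 rose and 0 fell (median 0.28), where 7.83% of all tested genes rose. B2m, the light chain of class I molecules, was at 2447, 2628 and 2379 FPKM in OMV-SIRP-G libraries against 1543, 1783 and 1688 FPKM in PBS libraries (0.57 ± 0.12, adjusted p = 0.0106), and the heavy chain H2-D1, which has close relatives that could share its reads, rose by 0.50 ± 0.11 (adjusted p = 0.0126). Of 11 MHC class II genes, 1 rose, a share near the 7.83% of all tested genes that rose. The gene was Ifi30, a thiol reductase of the lysosome, at 536, 611 and 587 FPKM in OMV-SIRP-G libraries against 327, 294 and 289 FPKM in PBS libraries (0.93 ± 0.10, adjusted p = 0.000229). The invariant chain Cd74 did not pass against PBS, at 2444, 2662 and 2729 FPKM in OMV-SIRP-G libraries, 4133, 3946 and 4236 FPKM in OMV-SIRP libraries and 2431, 1986 and 1948 FPKM in PBS libraries (0.31 ± 0.10, adjusted p = 0.0729). It was lower in OMV-SIRP-G than in OMV-SIRP libraries (-0.65 ± 0.10, adjusted p = 0.00263), as were 7 of the 11 class II genes, where 5.62% of all genes were lower in that comparison. Class II genes are also expressed by B cells and dendritic cells. In the same comparison 5 of 9 B cell genes were lower, with a summed level of 91.4 to 138 FPKM in OMV-SIRP-G libraries against 304 to 431 FPKM in OMV-SIRP libraries, as were 9 of 15 dendritic cell genes, and their part in the class II result was not tested. Among 14 checkpoint and costimulatory ligands, 1 rose, a share near that of all genes. It was the PD-L1 gene Cd274, at 14.8, 18.6 and 15.8 FPKM in OMV-SIRP-G libraries against 10.01, 9.6 and 10.7 FPKM in PBS libraries (0.64 ± 0.15, adjusted p = 0.0159). This call was lost without OMV-SIRP-G library 2 or PBS library 2 (adjusted p up to 0.0654).

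Hypoxia and angiogenesis genes were split, with 7 of 15 rising and 4 falling, where 7.83% of all tested genes rose and 7.28% fell. Without OMV-SIRP-G library 3 or PBS library 2, 4 rose, and without OMV-SIRP-G library 1 or 2 or PBS library 1, 2 fell. Thbs1, which encodes the matrix protein thrombospondin 1, was at 92, 96.2 and 90.9 FPKM in OMV-SIRP-G libraries, 18.8, 15.7 and 11.9 FPKM in OMV-SIRP libraries and 18.5, 22.8 and 20.2 FPKM in PBS libraries (2.13 ± 0.16 against PBS, adjusted p = 3.04e-05). Hmox1, the haem oxygenase that frees iron from haem, was at 836, 839.6 and 957 FPKM in OMV-SIRP-G libraries against 313, 330.1 and 306 FPKM in PBS libraries (1.47 ± 0.10, adjusted p = 1.66e-05). Both rose with no overlap. Car9, a carbonic anhydrase of hypoxic tumour cells, went the other way, at 15.1, 13.2 and 10.1 FPKM in OMV-SIRP-G libraries against 40.1, 35.2 and 36.6 FPKM in PBS libraries (-1.48 ± 0.15, adjusted p = 0.00012). Of 14 iron and NRF2 target genes, 4 rose, Hmox1, Slc11a1, Fth1 and Ftl1, and 1 fell, the liver hormone gene Hamp, named after its values were seen. The share of this list that fell was near the 7.28% of all tested genes that fell. The Hamp call was lost without OMV-SIRP-G library 1 or 2 or PBS library 2 or 3 (adjusted p up to 0.154), and that of Ftl1 without any 1 of 5 libraries (up to 0.101). The phagosomal metal transporter Slc11a1 was at 107, 102 and 118 FPKM in OMV-SIRP-G libraries against 67.9, 66.7 and 56.6 FPKM in PBS libraries (0.76 ± 0.11, adjusted p = 0.00136).

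Genes of amino acid and cholesterol synthesis were among the falls and not among the rises. Of 12 amino acid stress genes tested, 0 rose and 7 fell (median -0.64), where 7.28% of all tested genes fell. Phgdh, which starts serine synthesis, was at 15.2, 14.9 and 16.2 FPKM in OMV-SIRP-G libraries, 39, 48.3 and 42.3 FPKM in OMV-SIRP libraries and 68.4, 55.5 and 56.2 FPKM in PBS libraries (-1.89 ± 0.13 against PBS, adjusted p = 1.66e-05). Asns, the asparagine synthetase, was at 7.99, 6.1 and 5.66 FPKM in OMV-SIRP-G libraries against 34.5, 22.6 and 23.8 FPKM in PBS libraries (-1.87 ± 0.19, adjusted p = 0.00013). Neither gene's groups overlapped. Of 17 cholesterol synthesis genes, 0 rose and 8 fell (median -0.52); Fdft1, the squalene synthase, was at 10.2, 10.4 and 7.73 FPKM in OMV-SIRP-G libraries against 16.3, 15.2 and 16.9 FPKM in PBS libraries (-0.72 ± 0.14, adjusted p = 0.0075), and Msmo1, a sterol demethylase, changed by -0.85 ± 0.17 (adjusted p = 0.00787). Without PBS library 2, 5 of these genes fell. Of 14 glycolysis genes, 2 rose and 5 fell, where 7.83% of all tested genes rose and 7.28% fell. Without OMV-SIRP-G library 3 the numbers were 1 and 2. Without OMV-SIRP-G library 2 or PBS library 2 or 3, 1 also rose, a share near that of all genes. Without OMV-SIRP-G library 2 or any 1 PBS library, 3 fell. Pgk1, a glycolytic kinase, was at 529, 534 and 509 FPKM in OMV-SIRP-G libraries against 732, 725 and 711 FPKM in PBS libraries (-0.46 ± 0.08, adjusted p = 0.00417), whereas Pfkfb3, which makes an activator of glycolysis, rose by 0.68 ± 0.15 (adjusted p = 0.0121). The pigment cell genes, with a median of -1.62, moved down beside these lists, and their part in these falls was not tested.

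Few genes of the respiratory chain passed against PBS, where 7.28% of all tested genes fell. Of 13 mitochondrially encoded genes, 2 fell and 0 rose (median -0.36). When a library was left out, 1 to 4 fell, with 4 without PBS library 1. Against OMV-SIRP, 6 of these 13 genes were lower in OMV-SIRP-G libraries (median -0.55), where 5.62% of all genes were lower. Of 19 nuclear genes of the respiratory chain, 1 fell and 0 rose against PBS (median -0.20). The complex I subunit gene mt-Nd1 was at 17070.2, 17744 and 16816 FPKM in OMV-SIRP-G libraries against 23489.8, 26611 and 23476 FPKM in PBS libraries (-0.51 ± 0.10, adjusted p = 0.00541), and the ATP synthase gene Atp5b fell to 241 ± 7.27 FPKM in OMV-SIRP-G libraries, against 333 ± 34.6 FPKM in PBS libraries (SD, n = 3 each; -0.46 ± 0.10, adjusted p = 0.0126).

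The largest falls were transcripts of organs other than the tumour. The 12 smallest log2 changes by the same rule were Ctrb1, Alb, Prss2, Try4, Apoa2, Clps, Cela2a, Serpina3k, Amy2a1, Cpa1, Ttr and Reg1. Ctrb1, Prss2, Try4, Clps, Cela2a, Amy2a1, Cpa1 and Reg1 encode secreted proteins of the exocrine pancreas, and Alb, Apoa2, Serpina3k and Ttr encode plasma proteins made by the liver. The last of the 12 was Reg1 at -4.10, and the first outside was Hpx, which encodes the haem carrier haemopexin, at -4.04.

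Ctrb1, a chymotrypsinogen at chr8:111686519-111691010, was at 0, 2.43 and 0 FPKM in OMV-SIRP-G libraries, 34.6, 281 and 583 FPKM in OMV-SIRP libraries and 81.2, 172 and 318 FPKM in PBS libraries. The OMV-SIRP-G libraries were at or near 0, and within the other groups the highest library exceeded the lowest several times over (-6.78 ± 1.05 against PBS, adjusted p = 0.00458). Prss2, a trypsinogen, was at 0 in all 3 OMV-SIRP-G libraries, 10.8, 81.5 and 152 FPKM in OMV-SIRP libraries and 10.1, 36.3 and 105 FPKM in PBS libraries, which makes the mean at least 205-fold lower when 3 reads per library are taken as the floor. Cela2a, an elastase, was also at 0 in all 3 OMV-SIRP-G libraries, 6.37, 36.6 and 81 FPKM in OMV-SIRP libraries and 8.32, 21.8 and 46.5 FPKM in PBS libraries, at least 219-fold lower by the same floor. Clps, Cpa1, Amy2a1 and Reg1 were at 0 in these libraries too, at least 83.9-fold, 177-fold, 184-fold and 84.2-fold lower than PBS. PBS library 3 was the highest PBS library for each of these genes, and without it the limits were 94.2-fold for Prss2, 129-fold for Cela2a, 59.6-fold for Clps, 125-fold for Cpa1, 73.6-fold for Amy2a1 and 51.4-fold for Reg1. Amy2a1 differed most among PBS libraries, at 31.8, 1.42 and 91.1 FPKM. Prss2, Try4 and Amy2a1 have near-identical copies, so the split of reads among them is uncertain.

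Albumin differed within the OMV-SIRP-G group. Alb was at 0.618, 0.11 and 53.6 FPKM in OMV-SIRP-G libraries, 33.5, 219 and 347 FPKM in OMV-SIRP libraries and 120.3, 316 and 319 FPKM in PBS libraries, so that OMV-SIRP-G library 3 exceeded the lowest OMV-SIRP library (-5.65 ± 1.52 against PBS, adjusted p = 0.0446). Apoa2 had the same order within the group, at 0, 1.8 and 26.6 FPKM in OMV-SIRP-G libraries against 93.1, 147 and 122 FPKM in PBS libraries (-4.81 ± 1.33, adjusted p = 0.0487). Summed over 16 pancreatic genes, the level was 15.4 to 24 FPKM in OMV-SIRP-G libraries, 100.4 to 1489 in OMV-SIRP libraries and 205 to 879 in PBS libraries. Summed over 16 liver genes, it was 2.82 to 158 FPKM in OMV-SIRP-G libraries, 103 to 1268 in OMV-SIRP libraries and 457 to 967 in PBS libraries, and the 158 was that of OMV-SIRP-G library 3. On the recovered reads with limma voom, none of the 12 genes passed, with adjusted p of 0.18 for Reg1 to 0.646 for Ctrb1. Alb, Apoa2 and Ttr were also lost without OMV-SIRP-G library 1 or 2, or without any 1 of the PBS libraries, with adjusted p up to 0.14. Prss2 was lost without OMV-SIRP-G library 2 or PBS library 2 (adjusted p up to 0.0534), and Amy2a1 without any 1 of 5 libraries (up to 0.123).

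Pigment cell genes fell as a block. Pmel, which encodes the fibril protein of the melanosome, was at 318, 386 and 372 FPKM in OMV-SIRP-G libraries, 1198, 1105 and 1110.4 FPKM in OMV-SIRP libraries and 1587, 1342 and 1321 FPKM in PBS libraries (-1.98 ± 0.11 against PBS, adjusted p = 5.37e-06). Dct, an enzyme of melanin synthesis, was at 137, 147 and 148 FPKM in OMV-SIRP-G libraries, 401, 378 and 379 FPKM in OMV-SIRP libraries and 487, 472 and 493 FPKM in PBS libraries (-1.74 ± 0.08, adjusted p = 3.95e-06). No groups overlapped, and the OMV-SIRP-G libraries were lowest for both. Slc45a2, a melanosome transporter, and Tyrp1, a melanin enzyme, changed by -2.06 ± 0.10 and -1.62 ± 0.12 (adjusted p = 3.95e-06 and 3.04e-05). Changes within the list ran over -2.58 to -0.92. Against OMV-SIRP, 15 of the 15 were lower in OMV-SIRP-G libraries (median -1.42), where 5.62% of all genes were lower.

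MITF, the main regulator of pigment cells, binds the E-box CATGTG. This motif was present on either strand in 12.3% of the 32851 promoters and in 6 of the 8 pigment cell genes with a promoter sequence, which were Dct, Mc1r, Oca2, Trpm1, Tyr and Tyrp1. All 8 pigment cell genes with a promoter sequence fell, with the motif or without it, so these falls say nothing about the motif. The windows of 3 genes with the motif are shown as examples of the shared letters, with the match in capitals.
Tyrp1, chr4:80834143-80834196, plus strand: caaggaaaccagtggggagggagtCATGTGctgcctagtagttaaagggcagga
Tyr, chr7:87493513-87493557, minus strand: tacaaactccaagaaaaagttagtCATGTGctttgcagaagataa
Dct, chr14:118052367-118052420, minus strand: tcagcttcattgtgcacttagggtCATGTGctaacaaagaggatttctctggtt

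Red cell genes fell relative to PBS. Of 6 tested, 5 fell (median -2.41), where 7.28% of all tested genes fell. The β-globin gene Hbb-bs was at 1595, 1614 and 1670.4 FPKM in OMV-SIRP-G libraries, 1236, 1143 and 1439 FPKM in OMV-SIRP libraries and 8121, 7635 and 7733 FPKM in PBS libraries (-2.27 ± 0.10 against PBS, adjusted p = 1.69e-06). Alas2, the haem synthesis enzyme of red cell precursors, was at 23.2, 28.3 and 27.2 FPKM in OMV-SIRP-G libraries, 33.5, 21.8 and 22.7 FPKM in OMV-SIRP libraries and 241, 182 and 177 FPKM in PBS libraries (-2.88 ± 0.18 against PBS, adjusted p = 1.01e-05). The OMV-SIRP-G and OMV-SIRP values of Alas2 overlapped, whereas Hbb-bs was higher in every OMV-SIRP-G library than in any OMV-SIRP library (0.36 ± 0.10, adjusted p = 0.0366). The globin genes have near-identical copies, and their split is uncertain. The summed level of the list was 3236 to 3267 FPKM in OMV-SIRP-G libraries, 2221 to 3103 in OMV-SIRP libraries and 16537 to 17907 in PBS libraries.

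T cell and cytotoxic cell genes were lower than in PBS libraries as well. Of 20 T cell genes tested, 0 rose and 17 fell (median -1.07), where 7.28% of all tested genes fell. Of 15 NK and cytotoxic cell genes, 0 rose and 9 fell (median -1.40). Cd3d, a chain of the T cell receptor complex, was at 7.54, 6.69 and 6.36 FPKM in OMV-SIRP-G libraries, 12.7, 7.21 and 10.4 FPKM in OMV-SIRP libraries and 33.1, 24.3 and 26.8 FPKM in PBS libraries (-1.88 ± 0.20 against PBS, adjusted p = 0.000191). Ctla4, an inhibitory receptor of T cells, was at 12.4, 8.68 and 10.6 FPKM in OMV-SIRP-G libraries, 9.76, 12.6 and 6.56 FPKM in OMV-SIRP libraries and 31.7, 30.5 and 32.5 FPKM in PBS libraries (-1.50 ± 0.21, adjusted p = 0.00104). For both genes the OMV-SIRP-G libraries overlapped the OMV-SIRP libraries and lay below all PBS libraries. Gzma, a granzyme of killer cells, was at 6.02, 10.4 and 4.41 FPKM in OMV-SIRP-G libraries, 9.06, 7.15 and 7.86 FPKM in OMV-SIRP libraries and 61.4, 46.4 and 39.5 FPKM in PBS libraries (-2.70 ± 0.26 against PBS, adjusted p = 0.000108). Gzmb and Il2rb changed by -1.39 ± 0.14 and -1.49 ± 0.15 (adjusted p = 0.000136 and 0.00012). The NK receptor Ncr1 was at 0 in all OMV-SIRP-G libraries. Without PBS library 1, 10 of the T cell genes fell. Summed over the T cell list, the level was 179 to 214 FPKM in OMV-SIRP-G libraries, 191 to 232 in OMV-SIRP libraries and 426 to 543 in PBS libraries. Summed over the cytotoxic list, it was 251 to 261 FPKM in OMV-SIRP-G libraries, 278 to 295 in OMV-SIRP libraries and 539.7 to 625 in PBS libraries.

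Of 15 dendritic cell genes tested, 1 rose and 4 fell (median -0.21), where 7.83% of all tested genes rose and 7.28% fell. The share of this list that rose was near that of all genes. Those that fell were Ccr7, Ccl22, Fscn1 and Itgae, and the member that rose was Bst2, which is also an interferon-stimulated gene and whose call was lost without any 1 of 5 libraries. Ccl22 was at 22.5, 24.7 and 27 FPKM in OMV-SIRP-G libraries, 72.7, 69.1 and 70.6 FPKM in OMV-SIRP libraries and 66, 59.1 and 55.3 FPKM in PBS libraries (-1.25 ± 0.11 against PBS, adjusted p = 7.9e-05). Fscn1, the actin bundler of mature dendritic cells, was at 59.7, 68.5 and 71.1 FPKM in OMV-SIRP-G libraries, 169.8, 168 and 171 FPKM in OMV-SIRP libraries and 163, 133 and 148 FPKM in PBS libraries (-1.14 ± 0.11, adjusted p = 0.000104). The OMV-SIRP-G libraries were the lowest for both genes.

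Arg1, Mrc1, Nos2, Sirpa, Cd47 and Cd86 were also read in TAM of the MC38 tumour, and all were higher after OMV-SIRP-G there as well. The tables of the tumours were scaled apart from each other, and levels are therefore compared only within a table, with no test between them. In MC38 TAM, Arg1 was at 1117, 1091 and 1046 FPKM in OMV-SIRP-G libraries against 20.6, 18.9 and 52.9 FPKM in PBS libraries, and Mrc1 was at 43.5, 38.2 and 37.3 FPKM in OMV-SIRP-G libraries against 1.22, 0.288 and 0.151 FPKM in PBS libraries. Nos2 was at 66.3, 66.8 and 62.6 FPKM in OMV-SIRP-G libraries against 10.5, 16.2 and 23.2 FPKM in PBS libraries. Sirpa was at 72.5, 78.2 and 68.2 FPKM in OMV-SIRP-G libraries against 13.3, 10.2 and 22.2 FPKM in PBS libraries, and Cd47 was at 49.4, 50.8 and 41.8 FPKM in OMV-SIRP-G libraries against 28.2, 26 and 27.1 FPKM in PBS libraries. Cd86, which did not pass in B16 TAM, was at 49.8, 57.8 and 58.7 FPKM in MC38 OMV-SIRP-G libraries against 13, 17.5 and 17 FPKM in MC38 PBS libraries. The OMV-SIRP-G libraries lay above the PBS libraries for all 6 genes in both models. The macrophage identity list summed to 4630 to 4845 FPKM in MC38 OMV-SIRP-G libraries against 361 to 684 FPKM in MC38 PBS libraries. In MC38 OMV-SIRP libraries it summed to 6421, 7714 and 3055 FPKM, on both sides of the OMV-SIRP-G values. In B16 TAM every OMV-SIRP sum of this list lay below every OMV-SIRP-G sum.

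**Figure D5:**
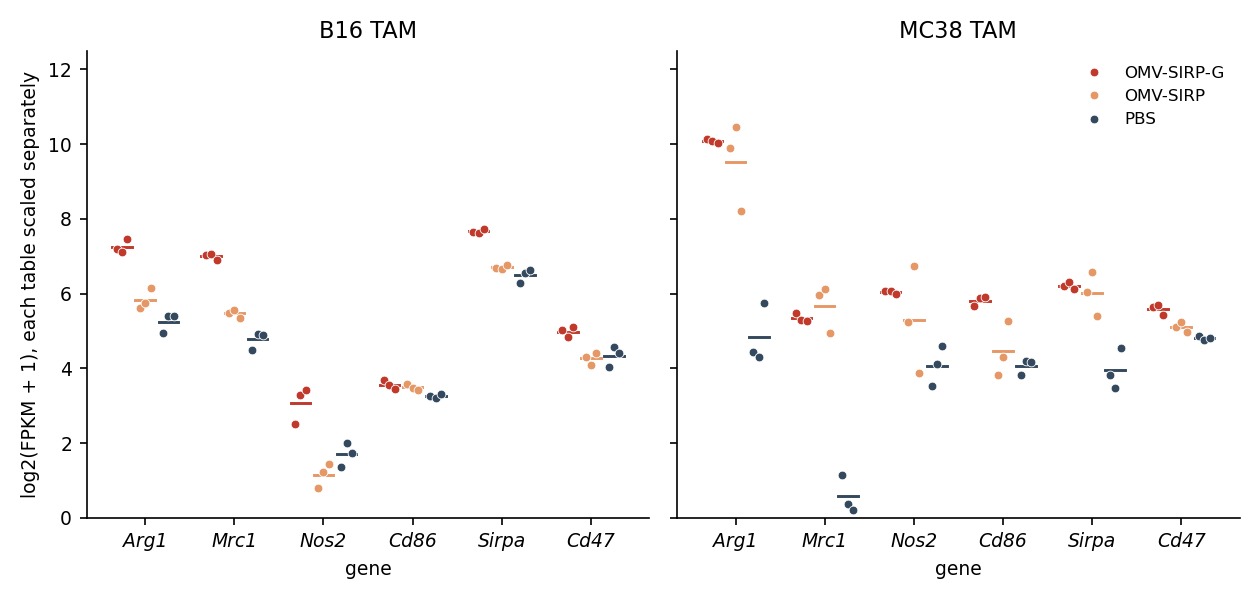
Level, as log2(FPKM + 1), of 6 genes in TAM libraries of the B16 table (left) and the MC38 table (right), which were scaled separately; each point is 1 library and bars are the means of the log2 values. In both panels the OMV-SIRP-G points lie above the PBS points for each gene, with the narrowest gap for Cd86 in B16 TAM.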

How the data were processed

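RNA of tumour-associated macrophages was made into messenger RNA libraries, per the labels' protocols. The authors deposited FPKM per gene in 1 table for each tumour (fragments per kilobase, scaled for depth). Per the submitters' processing notes, HISAT2 2.0.5, featureCounts 1.5.0-p3 and StringTie were used with the GRCm38 build, and the sources used here do not say how. Multiplying the deposited FPKM by gene length gave whole reads for 100% of values at a tolerance of 0.05 reads, and showed that the FPKM carry a median-of-ratios scaling between libraries. Groups were taken from the labels. The kit's strand setting is not given, so antisense partners may share reads.

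Tested were genes whose FPKM reached 1 in 3 or more of the 9 B16 libraries, 12542 of 56575 gene models and 10891 of them protein coding. Log2(FPKM + 1) was fitted with limma 3.58.1 (lmFit, eBayes with trend and robust; statmod 1.5.0, R 4.3.3) over all 9 libraries, which share an estimate of the spread, and p was adjusted by Benjamini-Hochberg over all genes tested at 0.05. The comparisons with PBS and with OMV-SIRP share the OMV-SIRP-G libraries. Where a gene was at 0 in a group, a fold was computed against 3 reads per library.

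The tests and the 44 gene lists were chosen with earlier results of these data known. Named were the 12 largest changes each way among protein-coding genes that passed, averaged 5 FPKM or more over the 6 libraries and had groups apart; from each list, at most the 4 genes with the smallest adjusted p; Sirpa, Cd47, Arg1, Nos2, Mrc1 and Cd86; and, after their values were seen, members that moved against their list, genes with a motif match or at 0, and the pancreatic and liver genes. A few members of the lists are not reported here by name. The code was tested on simulated data. Promoters are those of RefSeq (GRCm38.p6), with 250 bases before the start searched. Alternatives were a pseudocount of 0.1, no filter, a filter at an FPKM of 5, scaling to total reads, limma voom with TMM on recovered reads, a fit of 6 libraries, a replicate block, and leaving out each library. The libraries of a group differed by more than sampling noise (chi-square per gene 9.9 to 41.5).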

Additional observations from a re-analysis of the deposited data

Results flagged for a closer look

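For 36 of the 163 named genes that passed, every OMV-SIRP-G library lay on one side of every PBS library in B16 TAM and on the other side in MC38 TAM. For 75 others of the 163 the groups were apart in the same direction in both tumours, and for 52 they overlapped in MC38 TAM. Of all 1893 genes that passed with groups apart in B16 TAM, 15.1% were apart the opposite way in MC38 TAM and 45% the same way. The difference between the tumours was not tested, because the tables were scaled separately, and the values below are log2 differences, OMV-SIRP-G minus PBS, within each table. Of 17 T cell genes that fell in B16 TAM, 13 were apart the opposite way in MC38 TAM and 0 the same way, and of 9 cytotoxic genes that fell, 9 were apart the opposite way. Cd3d differed by -1.88 in B16 and 0.75 in MC38, Cd3g by -1.43 and 0.45, Ctla4 by -1.50 and 1.51, Gzma by -2.70 and 5.78, Gzmb by -1.39 and 2.75, Il2rb by -1.49 and 1.09, Ccl5 by -0.74 and 1.82, and Ncr1 by -2.06 and 3.16. The adhesion genes Itgal and Spn were lower in B16 TAM and higher in MC38 TAM too, Itgal with -0.71 in B16 and 1.86 in MC38 and Spn with -0.84 and 1.16. All 5 dendritic cell genes that passed in B16 TAM were apart the opposite way in MC38 TAM, among them those that fell, with -1.02 in B16 and 2.04 in MC38 for Ccr7, -1.25 and 2.89 for Ccl22, -1.14 and 2.99 for Fscn1, and -0.98 and 2.15 for Itgae.

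Of 7 glycolysis genes that passed in B16 TAM, 5 were apart the opposite way in MC38 TAM and 2 the same way, and of 8 cholesterol synthesis genes, 4 were apart the opposite way and 1 the same way. Pgk1 differed by -0.46 in B16 and 0.65 in MC38, Pfkl by -0.51 and 1.84, Tpi1 by -0.49 and 1.25, Nsdhl by -0.69 and 1.34, and Insig1 by -0.61 and 1.00. A further 3 genes, chaperones of the endoplasmic reticulum were higher in B16 TAM and lower in MC38 TAM, with 0.48 in B16 and -0.51 in MC38 for Pdia3, 0.43 and -0.18 for Calr, and 0.45 and -0.49 for Hspa5, and S100a8 of neutrophils differed by 1.53 in B16 and -4.16 in MC38. The cochaperone Dnajb1 differed by -0.60 in B16 and 0.99 in MC38, the B cell genes Ighd and Cd79a by -2.06 and -1.29 in B16 and by 0.81 and 3.07 in MC38, the mast cell protease Cma1 by -1.71 and 2.56, Thy1 by -1.22 and 1.72, and Itgb3 by -1.63 and 0.87. The pancreatic genes Ctrb1 and Prss2 differed by -6.78 and -5.14 in B16 and by 0.69 and 1.35 in MC38. Both MC38 differences are between low levels. The 16 pancreatic genes together summed to 5.54 to 7.81 FPKM in MC38 OMV-SIRP-G libraries and 4.06 to 5.41 FPKM in MC38 PBS libraries. Il1r2 differed by -0.85 in B16 and 2.89 in MC38, the pigment receptor Mc1r by -1.24 and 0.35, and Lta4h by -0.68 and 0.50. The pigment cell list, which holds Mc1r, was low in MC38 TAM. It summed to 4.60 to 7.36 FPKM in MC38 OMV-SIRP-G libraries and 3.47 to 8.64 FPKM in MC38 PBS libraries. The interferon-stimulated genes Bst2 and Ifit3 were higher in B16, by 0.65 and 0.65, and lower in MC38, at -0.76 and -0.83.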

How the results depend on the processing

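Genes past the threshold against PBS numbered 1823 with a pseudocount of 0.1, 1697 with a filter at an FPKM of 5, 1875 with scaling to total reads (868 higher and 1007 lower), 2150 with limma voom, 2052 in a fit of the 6 libraries, 1276 with no filter and 1177 to 1470 with 1 library left out. Against OMV-SIRP, 925 passed with no filter, 1050 in a fit of 6 libraries and 1005 to 1327 with 1 library left out, against 1502 in the fit reported. With a replicate block, 1727 genes passed against PBS and 1329 against OMV-SIRP. Deviations of same-numbered libraries were weakly and positively correlated (0.000101 to 0.0779 over 9 pairs). Between differently numbered libraries of different groups the correlations ran from -0.0657 to 0.0444. Of 163 named genes that passed, 131 still passed without each library in turn and 131 under every other alternative, and the direction of the 163 was kept under all of them. Leaving out a library ended the calls of H2-D1, Calr, Tpi1, mt-Nd2 and Dnajb1 (adjusted p up to 0.0506, 0.0568, 0.0503, 0.141 and 0.0915). The genes that changed sign under an alternative had not passed. Krt8 was at 0.48, at -0.58 with a pseudocount of 0.1 and at -2.01 with voom, and Oas3 and Tnfaip3 were at -0.0127 and -0.0103 with scaling to total reads; the cause was not tested. With a library left out, the change ran over -1.24 to 1.35 for Krt8, -1.20 to 0.12 for Krt18, -1.23 to 0.47 for Des, -0.028 to 0.31 for Kdr, -0.0398 to 0.15 for Oas3 and -0.0198 to 0.0937 for Tnfaip3.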

Other observations

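Of 13 heat shock genes, 2 rose, Hspa1a and Hspa5, and 3 fell, Hsp90aa1, Dnajb1 and Hspd1 (median -0.27). Among all tested genes, 7.83% rose and 7.28% fell. Hsp90aa1, a cytosolic chaperone, was at 79.8, 89.6 and 90.6 FPKM in OMV-SIRP-G libraries against 123, 131 and 129 FPKM in PBS libraries (-0.55 ± 0.11, adjusted p = 0.00751). Without OMV-SIRP-G library 1, PBS library 2 or PBS library 3, 1 heat shock gene fell, and the calls of Dnajb1 and Hspd1 were each lost without any 1 of 4 libraries (adjusted p up to 0.0915 and 0.0989). Hspa1a has a near-identical copy in Hspa1b, so its split is uncertain. Of 18 immediate-early genes, 3 rose, Atf3, Jun and Ier3 (median 0.25); the transcription factor Atf3 was at 89.7, 97.7 and 77.7 FPKM in OMV-SIRP-G libraries against 56.1, 52.4 and 47.8 FPKM in PBS libraries (0.75 ± 0.12, adjusted p = 0.00276). Against OMV-SIRP, 9 of this list were higher in OMV-SIRP-G libraries, where 6.35% of all genes were higher. Of 18 cell cycle genes, 3 fell, Cdc20, Rrm2 and Plk1 (median -0.23). Of 20 ribosomal protein genes, 1 fell, Rplp0 (median -0.18), a share near the 7.28% of all tested genes that fell. The calls of Plk1 and Rplp0 were lost without any 1 of 5 libraries (adjusted p up to 0.112 and 0.0909).

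In OMV-SIRP-G and PBS libraries, the cell type lists below had lower summed levels than the T cell list given above. Among all tested genes, 7.83% rose and 7.28% fell. Of 9 B cell genes, 2 fell, Ighd and Cd79a, with Ighd at 0.277, 0 and 0 FPKM in OMV-SIRP-G libraries against 3.07, 3.3 and 4.29 FPKM in PBS libraries. Neutrophil genes summed to 25.7 to 43.5 FPKM in OMV-SIRP-G libraries and 15.1 to 22.3 FPKM in PBS libraries, 3 of 5 tested rose, Csf3r, Mmp8 and S100a8, and Ly6g, Mpo and Elane were at 0 in all 6 libraries. The rises of Mmp8 and S100a8 were lost without several single libraries (adjusted p up to 0.135 and 0.155). The mast cell proteases Mcpt4, Cma1 and Tpsb2 fell and were at 0 in all OMV-SIRP-G libraries, at least 16.6-fold, 13.2-fold and 12.8-fold lower than PBS with a floor of 3 reads per library. The Tpsb2 call was lost without PBS library 2 or 3 (adjusted p up to 0.0656). Fibroblast genes summed to 26.8 to 34.5 FPKM in OMV-SIRP-G libraries and 48.6 to 64.6 FPKM in PBS libraries, where Thy1, a marker shared with T cells, was the 1 of 8 that fell. Endothelial genes summed to 5.56 to 10.9 and 10.1 to 12.7 FPKM in OMV-SIRP-G and PBS libraries, and Plvap was the 1 of 5 that fell, a call lost without any 1 of 4 libraries (adjusted p up to 0.129). Epithelial genes summed to 68.7, 7.85 and 4.45 FPKM in OMV-SIRP-G libraries 1, 2 and 3 and to 14.2 to 17.7 FPKM in PBS libraries. Of 5 epithelial genes, 1 rose, Cdh1 (lost without any 1 of 5 libraries, adjusted p up to 0.132). Of 2 fat and muscle genes tested, neither Mylpf (-1.25 ± 0.38, adjusted p = 0.0501) nor Des (-0.09 ± 0.83, adjusted p = 0.956) passed.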
